A study of Mus musculus with 12 samples.

Results

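The genes described here are 6 genes of myoblast migration, chosen by name: the receptor gene Met with its ligand gene Hgf and its docking protein gene Gab1, the homeobox gene Lbx1, and the chemokine receptor gene Cxcr4 with its ligand gene Cxcl12. The choice was made with earlier results of these data known. The genes are 6 of 18193 genes and 14 of 34945 probe sets with a single gene symbol on Affymetrix Mouse Genome 430 2.0 arrays. Expression was measured in tongues of C57BL/6J mouse embryos at embryonic day 13.5, with 1 array for each of 12 samples. The 6 mutant samples were Myf5-Cre;Smad4flox/flox, in which Cre, driven by Myf5, an early myogenic gene, can remove both copies of Smad4 from the lineage that expresses Myf5. The 6 control samples were Myf5-Cre;Smad4flox/+, so they too carried the Cre and 1 floxed copy, and kept 1 wild-type copy. The comparison asks what the loss of Smad4, the shared transducer of TGF-β and BMP signals, does to expression of these genes. Other cells of the tongue keep Smad4, and each value averages all cells of the organ. Litters, and whether tongues were pooled, are unstated in the sources used.

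HGF is a growth factor secreted by mesenchyme, and MET is the receptor tyrosine kinase that binds it on migrating muscle progenitors. GAB1 is the docking protein that passes the MET signal on. LBX1 is a transcription factor of migrating progenitors, among them those of the hypoglossal cord, the stream of cells that brings muscle to the tongue. CXCL12 is a chemokine made by mesenchyme, and CXCR4 is its receptor on progenitors and also on endothelial and blood cells. In mice, loss of Met or Hgf leaves muscles built by migrating progenitors missing or reduced.

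Both ligand genes were higher in mutant tongues and both receptor genes were lower. Hgf rose 1.63-fold and Cxcl12 1.56-fold, while Met fell 1.37-fold and Cxcr4 1.17-fold. Lbx1 and Gab1 did not pass the test, with log2 differences of −0.29 and 0.18. Thus 4 of the 6 genes passed, 2 in each direction, against a background in which 11.1% of all genes passed (6.3% higher and 4.8% lower). Because the 6 genes were chosen with earlier results of these data known, this count is a description and not independent support. The median difference was −0.02 for the 6 genes and 0.01 for all genes on the log2 scale. Values are log2 signals of the brightest probe set of each gene, and adjusted p values are from limma with Benjamini-Hochberg adjustment over all genes, at a threshold of 0.05.

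Promoters of the 4 genes that changed are shown because these genes moved in opposed pairs. Of the 6 genes, 5 have an entry in the RefSeq promoter table of build GRCm38.p6, and Lbx1 has none. Each entry runs from 250 bases before to 50 bases after a transcript start, read 5′ to 3′ on the gene's strand. Capitals mark the E-box CANNTG, the core bound by myogenic factors and many other helix-loop-helix proteins, and the SMAD motif GTCTG or its other strand CAGAC. Hgf has 2 listed starts and the more upstream one is printed.
Met chr6:17463707-17464006 (+): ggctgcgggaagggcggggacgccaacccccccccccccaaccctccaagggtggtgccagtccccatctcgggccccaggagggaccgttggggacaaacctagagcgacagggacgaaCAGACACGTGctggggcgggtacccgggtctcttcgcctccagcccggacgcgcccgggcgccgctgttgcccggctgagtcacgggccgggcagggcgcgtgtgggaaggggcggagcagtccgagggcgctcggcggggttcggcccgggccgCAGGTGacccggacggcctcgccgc
Cxcr4 chr1:128592250-128592549 (-): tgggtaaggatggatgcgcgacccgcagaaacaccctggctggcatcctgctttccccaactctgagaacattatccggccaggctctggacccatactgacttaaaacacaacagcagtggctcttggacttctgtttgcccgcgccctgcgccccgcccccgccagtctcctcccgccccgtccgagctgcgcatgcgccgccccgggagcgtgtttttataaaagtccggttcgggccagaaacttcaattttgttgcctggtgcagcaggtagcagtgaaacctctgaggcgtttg
Hgf chr5:16553245-16553544 (+): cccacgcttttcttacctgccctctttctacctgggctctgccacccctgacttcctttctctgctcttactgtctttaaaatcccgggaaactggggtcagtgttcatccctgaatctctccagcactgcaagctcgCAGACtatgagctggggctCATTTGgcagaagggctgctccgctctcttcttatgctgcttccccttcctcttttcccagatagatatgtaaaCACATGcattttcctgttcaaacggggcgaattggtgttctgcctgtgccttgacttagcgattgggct
Cxcl12 chr6:117168285-117168584 (+): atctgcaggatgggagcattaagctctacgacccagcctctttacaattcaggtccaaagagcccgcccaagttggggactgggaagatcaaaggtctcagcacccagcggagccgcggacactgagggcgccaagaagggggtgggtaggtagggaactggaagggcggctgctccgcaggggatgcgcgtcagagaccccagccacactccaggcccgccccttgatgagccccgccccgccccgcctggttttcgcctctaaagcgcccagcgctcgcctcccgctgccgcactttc
The Met window held 2 E-boxes, CACGTG from base −126 and CAGGTG from base 26 counted from the start, and 1 SMAD motif from base −130 that shared its last base with the first E-box. The Hgf window printed held 2 E-boxes and 1 SMAD motif, and that of its other start held 2 SMAD motifs and no E-box. Neither motif was found in the Cxcr4 or Cxcl12 window. Of 32851 promoter windows in the table, 72.3% held an E-box and 49.6% the SMAD motif. A match describes letters only and is not evidence of binding.

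Some facts of the whole series bear on these values. Smad4 itself had a lowest, median and highest signal of 11.58, 12.25 and 12.30 in mutants and of 12.16, 12.30 and 12.35 in controls (difference −0.15 ± 0.10 SE, adjusted p = 0.427). No source used states if the probe set lies within the deleted stretch, so this value does not check the genotype. Array medians lay between 6.10 and 6.17, and arrays correlated at 0.991 to 0.997. Mutants 1 and 2 stood farthest from the controls along the main axis of variation, which held 35.04% of the variance. Calls that rest on these 2 arrays are given with and without them. All 14 skeletal muscle markers used here fell in the mutant tongues. The labels name biological replicates without saying that each came from a separate embryo, so the p values measure the spread between these samples.

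Met, the HGF receptor (probe set 1434447_at), had a lowest, median and highest log2 signal of 9.63, 10.04 and 10.36 in mutants, against 10.36, 10.43 and 10.58 in controls. All 6 mutants lay below all 6 controls, as did 2.9% of all genes, but mutant 5 at 10.3589 was nearly level with control 1 at 10.3641. Mutants 1 and 2 read 9.63 each, mutants 4 and 6 read 10.04 each, and mutants 3 and 5 stood next to the controls. Met averaged 10.004 ± 0.321 in mutants and 10.46 ± 0.08 in controls (SD, n = 6 each), a difference of −0.45 (95% interval −0.71 to −0.20, adjusted p = 0.0259). The second Met probe set was dim, at 4.10 ± 0.28 in mutants and 4.12 ± 0.10 in controls, under the 6.13 that is the median of all probe sets, and its mutant minus control value was −0.02 (adjusted p = 0.944). Where each probe set was tested on its own, as here and for the further probe sets given, adjustment ran over all 34945, of which 7.49% passed. When mutants 1 and 2 were left out Met differed by −0.27 (adjusted p = 0.0746), and without mutant 1 or mutant 2 alone by −0.38 each (adjusted p = 0.0556 and 0.0532). The call also ended without control 5 (−0.43, adjusted p = 0.0548), without control 6 and mutant 6 (−0.45, adjusted p = 0.0662) and without control 3, mutant 4 and mutant 6 (−0.48, adjusted p = 0.115).

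Cxcr4, the CXCL12 receptor, had a lowest, median and highest signal of 8.07, 8.21 and 8.35 in mutants, against 8.35, 8.43 and 8.53 in controls, by its only probe set, 1448710_at. Of the 6 mutants 5 lay below every control. The exception was mutant 3 at 8.353, just above control 6 at 8.346. Cxcr4 averaged 8.21 ± 0.11 in mutants and 8.43 ± 0.08 in controls, a difference of −0.22 (95% interval −0.34 to −0.10, adjusted p = 0.0237). This was the smallest of the 4 changes that passed. The difference was −0.17 when mutants 1 and 2 were left out (adjusted p = 0.143), and without control 3, mutant 4 and mutant 6 it was −0.23 (adjusted p = 0.0978). Leaving out control 2, 4 or 5 or mutant 1 or 2 singly gave adjusted p values of 0.0514 to 0.0582.

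Lbx1, the migration-linked homeobox gene (1427400_at), had a lowest, median and highest signal of 8.13, 8.52 and 8.67 in mutants, against 8.67, 8.74 and 8.86 in controls. All mutants lay below all controls, by 0.003 between mutant 6 at 8.671 and control 1 at 8.674. Mutants 1 and 2 were low at 8.13 and 8.28, while mutants 3, 5 and 6 read 8.62 to 8.67. Lbx1 averaged 8.46 ± 0.22 in mutants and 8.75 ± 0.08 in controls, a difference of −0.29 (95% interval −0.48 to −0.10, adjusted p = 0.0547), which missed the threshold. The other Lbx1 probe set had a difference of −0.22 (95% interval −0.43 to −0.02, adjusted p = 0.203). There the groups overlapped, and mutant 5 at 7.71 lay above every control, the highest of which read 7.68. By the brightest Lbx1 probe set the difference was −0.16 with mutants 1 and 2 left out (adjusted p = 0.214).

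Hgf, the MET ligand gene (1442884_at), had a lowest, median and highest signal of 6.62, 6.95 and 7.53 in mutants, against 6.18, 6.27 and 6.47 in controls. Every mutant lay above every control, as for 3.4% of all genes, and mutants 1 and 2 were highest at 7.53 and 7.32. Hgf averaged 7.01 ± 0.36 in mutants and 6.30 ± 0.12 in controls, a rise of 0.70 (95% interval 0.41 to 1.00, adjusted p = 0.00469). The other Hgf probe sets rose by 0.49 and 0.28 (adjusted p = 0.00905 and 0.0225), and in both every mutant again lay above every control. The last of these is dim, at 5.65 ± 0.16 in mutants and 5.37 ± 0.05 in controls. Hgf still rose, by 0.50, when mutants 1 and 2 were left out (adjusted p = 0.00724).

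Cxcl12, the chemokine gene (1448823_at), had a lowest, median and highest signal of 10.98, 11.13 and 11.81 in mutants, against 10.42, 10.62 and 10.88 in controls. Every mutant lay above every control, and mutants 1 and 2 were again highest, at 11.81 and 11.61. Cxcl12 averaged 11.29 ± 0.34 in mutants and 10.65 ± 0.17 in controls, a rise of 0.64 (95% interval 0.35 to 0.93, adjusted p = 0.00886). Another Cxcl12 probe set, also bright, rose by 0.64 (adjusted p = 0.0186), though there mutant 3 at 10.50 lay below control 1 at 10.57. For the remaining, dim probe set the difference was −0.04 (adjusted p = 0.771), at 5.48 ± 0.08 in mutants and 5.52 ± 0.10 in controls. Cxcl12 rose by 0.43 with mutants 1 and 2 left out (adjusted p = 0.0141).

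Gab1, the docking protein gene (1417694_at), had a lowest, median and highest signal of 10.99, 11.11 and 11.22 in mutants, against 10.75, 10.91 and 11.09 in controls. The groups overlapped, with 3 of 6 mutants above every control. Gab1 averaged 11.10 ± 0.09 in mutants and 10.91 ± 0.12 in controls, a difference of 0.18 (95% interval 0.05 to 0.32, adjusted p = 0.0744). The next, about as bright, had a difference of 0.15 (adjusted p = 0.109). The dimmest of the 3 Gab1 probe sets had a difference of 0.43 (adjusted p = 0.150) and was uneven among controls, where controls 1, 2 and 3 read 5.73 to 6.09 and controls 4, 5 and 6 read 6.57 to 6.87, against 6.59 to 6.89 in mutants.

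**Figure D1:**
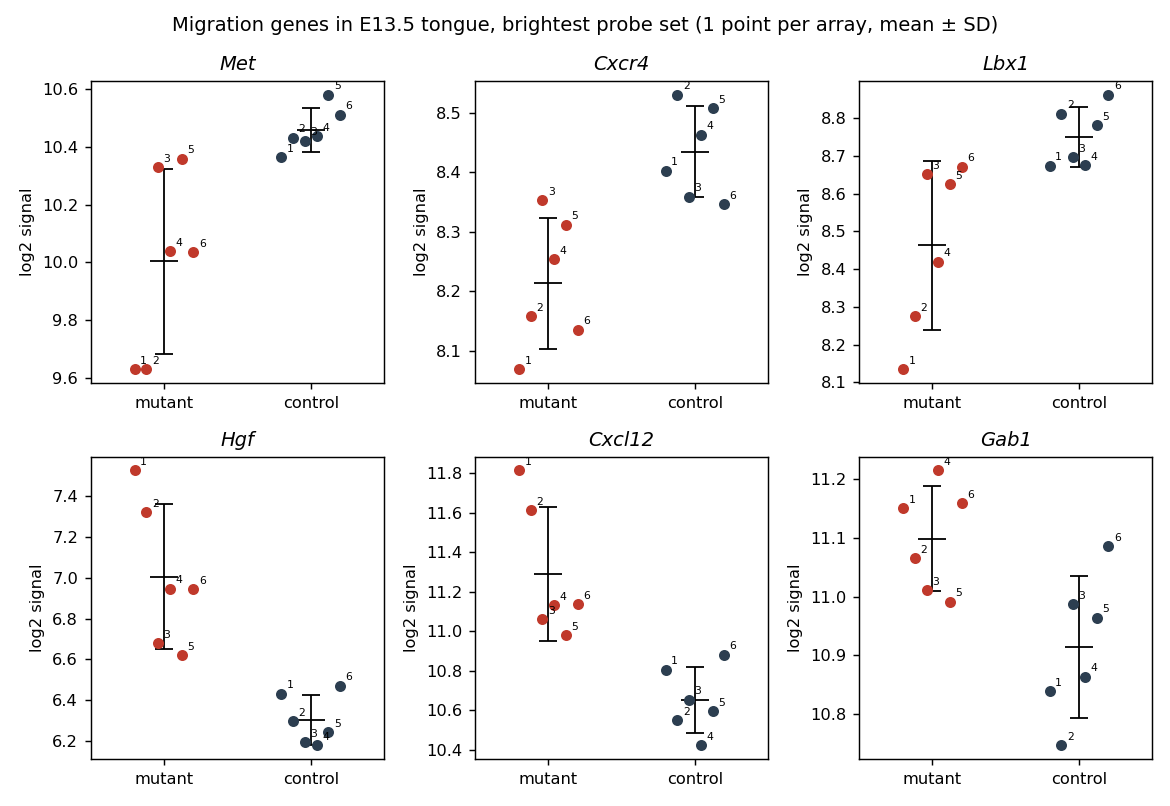
Log2 signal of the brightest probe set of each gene (y axis, a separate scale per panel) on the 6 mutant and 6 control arrays, with 1 numbered point per array and bars for mean ± SD. Hgf and Cxcl12 lie higher in every mutant than in any control, Met and Lbx1 lie lower, and mutants 1 and 2 are at the far end for Met, Lbx1, Hgf and Cxcl12.

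**Figure D2:**
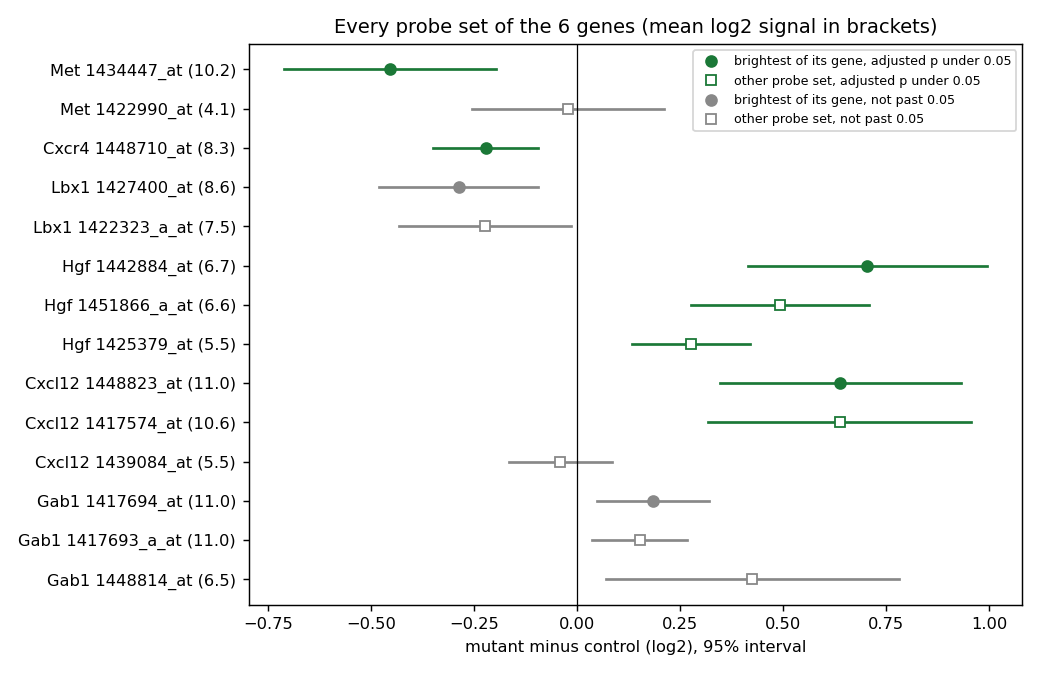
Mutant minus control difference on the log2 scale (x axis) with its 95% interval for each of the 14 probe sets, in rows by gene, with the mean log2 signal over 12 arrays in brackets. All 3 Hgf probe sets and 2 of 3 Cxcl12 probe sets rose, and the dim second probe set of Met lies at −0.02.

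Some pairs of the 6 genes moved together or in opposite directions across arrays. To set aside the difference between genotype means, the mean of each genotype was subtracted. Pearson's r and Spearman's rho were then taken over the 12 arrays, with 100000 permutations of arrays within genotype and adjustment over the 15 pairs. Subtraction does not remove how unevenly single mutants departed from controls. The SD was larger in mutants than in controls for every gene but Gab1, so r over 12 arrays leans on the mutants. Hgf and Cxcl12 went together most closely (r = 0.952, permutation p = 8e-05, adjusted p = 0.0012; rho = 0.916, permutation p = 0.00079, adjusted p = 0.0118), and r was 0.871 without mutants 1 and 2, the arrays farthest from the median. Within genotypes r was 0.974 over the 6 mutants and 0.875 over the 6 controls.

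Met and Lbx1 also went together (r = 0.858, permutation p = 0.00955, adjusted p = 0.03; rho = 0.804, permutation p = 0.0082, adjusted p = 0.0615), with r = 0.683 without mutants 1 and 2. Within genotypes r was 0.884 in mutants and 0.620 in controls. Met and its ligand gene Hgf ran opposite (r = −0.908, permutation p = 0.00697, adjusted p = 0.03; rho = −0.664, permutation p = 0.0459, adjusted p = 0.115). That relation was seen among mutants (r = −0.981) and not among controls (r = −0.07), and the difference was not tested. For Met and Hgf r was −0.798 without mutants 1 and 2. Cxcr4 and Cxcl12 ran opposite too (r = −0.770, permutation p = 0.00914, adjusted p = 0.03; rho = −0.755, permutation p = 0.0127, adjusted p = 0.0635), with −0.806 in mutants and −0.700 in controls. Without mutants 1 and 3, the arrays farthest from the median for this pair, r was −0.638. Each receptor gene also ran opposite to the ligand gene of the other receptor. For Met with Cxcl12 r was −0.823 (permutation p = 0.012, adjusted p = 0.03), and for Cxcr4 with Hgf −0.763 (permutation p = 0.0111, adjusted p = 0.03). Met with Cxcl12 gave −0.941 in mutants and −0.03 in controls, so it too was not seen among controls. Cxcr4 with Hgf gave −0.887 in mutants and −0.407 in controls. Without mutants 1 and 2 these pairs gave −0.567 and −0.646 over the arrays left. Among the 15 pairs 6 passed after adjustment by Pearson's r, and Hgf with Cxcl12 alone by rank. Gab1 passed with no other gene, at r = −0.172 with Met, −0.119 with Lbx1, 0.324 with Hgf, 0.336 with Cxcl12 and −0.596 with Cxcr4 (adjusted p from 0.0651 to 0.688).

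**Figure D3:**
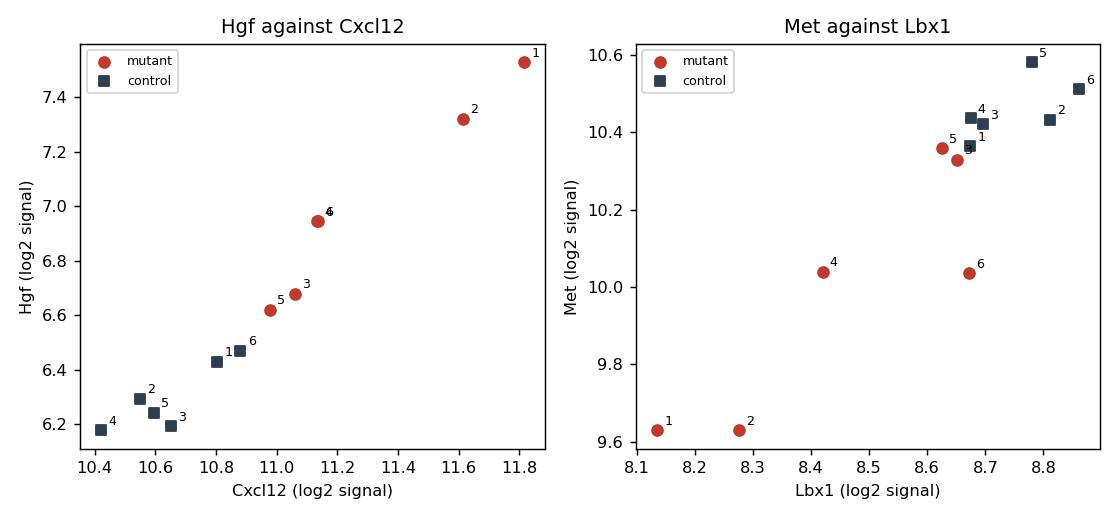
Log2 signal of Hgf against Cxcl12 (left) and of Met against Lbx1 (right), 1 numbered point per array, circles for mutants and squares for controls. Hgf and Cxcl12 rise together within both genotypes (r = 0.974 and 0.875 within the 6 mutants and the 6 controls).

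Among the 12161 other genes with a mean at or above the median of all probe sets, the 3 most like each member were found by the same r over 12 arrays with genotype means subtracted. They are given as a description. For Met these were Srpx2 (r = 0.977), Dapk2, a kinase gene (0.974), and Myod1, a myogenic determination factor (0.964), with differences of −1.09, −0.70 and −0.74, all of which passed. For Lbx1 they were Itga4, an integrin subunit gene (0.983, difference −0.70, adjusted p = 0.0028), Car3, a muscle carbonic anhydrase gene (0.953, difference −0.98, adjusted p = 0.0703), and Arhgef2 (0.953, difference −0.24, adjusted p = 0.0164). For Hgf they were Cxcl12 itself, Rspo2, a secreted Wnt enhancer (0.951, rise of 0.53, adjusted p = 0.0445), and Sulf1, a sulfatase of heparan sulfate (0.944, rise of 0.68, adjusted p = 0.0013).

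For Cxcl12 the most alike were Hgf, Wnt9a (0.943) and Rspo2 (0.941). For Cxcr4 they were Tmem243 and Tsg101 (0.929 each), which differed by −0.01 and −0.04 and did not pass, and Arid5a (0.922), which fell by 0.46. For Gab1 they were Arid5b (0.937), Zfp369 (0.932) and Rtl6 (0.931), none of which passed. Dapk2 and Rspo2 lost their calls with 8 of the 12 arrays left out singly, as did Myod1. Myod1 is also 1 of the muscle markers described with the cell types.

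Markers of muscle and mesenchyme moved on the same arrays, and in bulk tissue fewer cells of a type and less RNA per cell cannot be told apart. The 7 marker lists were chosen with earlier results of these data known. The p values of their means, here and below, are therefore a description and not independent support. The mean of the 14 muscle markers, set to 0 at the control mean, ran from −1.26 to −0.40 on mutants and from −0.27 to 0.12 on controls (exact permutation p = 0.00216, adjusted p = 0.00504 over 7 marker lists). It was lowest on mutants 1 and 2, at −1.26 and −0.96, the arrays on which Met and Lbx1 were lowest. The mean of 12 cranial mesenchyme markers ran from 0.08 to 0.31 on mutants and from −0.08 to 0.07 on controls (exact permutation p = 0.00216, adjusted p = 0.00504), and was highest on mutants 1 and 2, at 0.31 and 0.30, where Hgf and Cxcl12 were highest. This was not particular to mesenchyme. The oral epithelium mean was also highest on mutants 1 and 2, at 0.46 and 0.54. Endothelium and macrophage means were highest on mutant 1, and the neuron mean on mutant 2. Of the 12 mesenchyme markers 6 rose, among them the homeobox genes Dlx5 (0.68) and Prrx1 (0.61). The other calls were falls of Dcn and Lum (−0.42 and −0.38), matrix proteoglycan genes named after their values were seen. With mutants 1 and 2 left out 11 muscle markers fell, and 4 mesenchyme markers rose and none fell. The part of any marker group in the results was not tested.

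Met is also made in epithelium, and Cxcr4 in endothelium and blood cells. Among 12 markers of oral epithelium 5 passed, each as a rise, with means of 0.16 to 0.54 on mutants and −0.24 to 0.19 on controls (exact permutation p = 0.00866, adjusted p = 0.0121). Cldn4, a tight junction gene, rose by 0.46 and Esrp1, an epithelial splicing factor gene, by 0.39. Of 12 endothelium markers only Sox18 rose (0.24), and means of −0.03 to 0.17 on mutants overlapped those of −0.09 to 0.07 on controls (exact permutation p = 0.0952). With mutants 1 and 2 left out 1 epithelium marker and no endothelium or macrophage marker passed. Of 10 macrophage markers only Csf1r rose (0.21), with means of 0.02 to 0.24 on mutants and −0.07 to 0.06 on controls (exact permutation p = 0.0108, adjusted p = 0.0126). Neuron markers rose in 9 of 11 cases, led by Snap25 (1.51), and Ret, named after its value was seen, fell (−1.01). The neuron means ran from 0.22 to 0.88 on mutants and from −0.13 to 0.07 on controls (exact permutation p = 0.00216, adjusted p = 0.00504). Of 6 markers of Schwann cells and glia, Fabp7 and S100b rose (1.00 and 0.79) and Erbb3, a neuregulin receptor gene, fell (−0.51). S100b is named after its value was seen. The list means ran from 0.12 to 0.47 on mutants and from −0.14 to 0.15 on controls (exact permutation p = 0.00433, adjusted p = 0.00758).

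Values set against the muscle markers of the same array are given as a description, because the fall of the markers sets their direction for nearly every gene. Of the 18179 genes other than the 14 markers, 99.2% had a higher mean in mutants on this measure, with a median of 0.81 on the log2 scale, and 69.2% had every mutant above every control. Met lay below that median at 0.34, as did Lbx1 at 0.51 and Cxcr4 at 0.58. Gab1 at 0.98, Cxcl12 at 1.44 and Hgf at 1.503 lay above it. The order of the 6 genes is that of their plain differences.

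**Figure D4:**
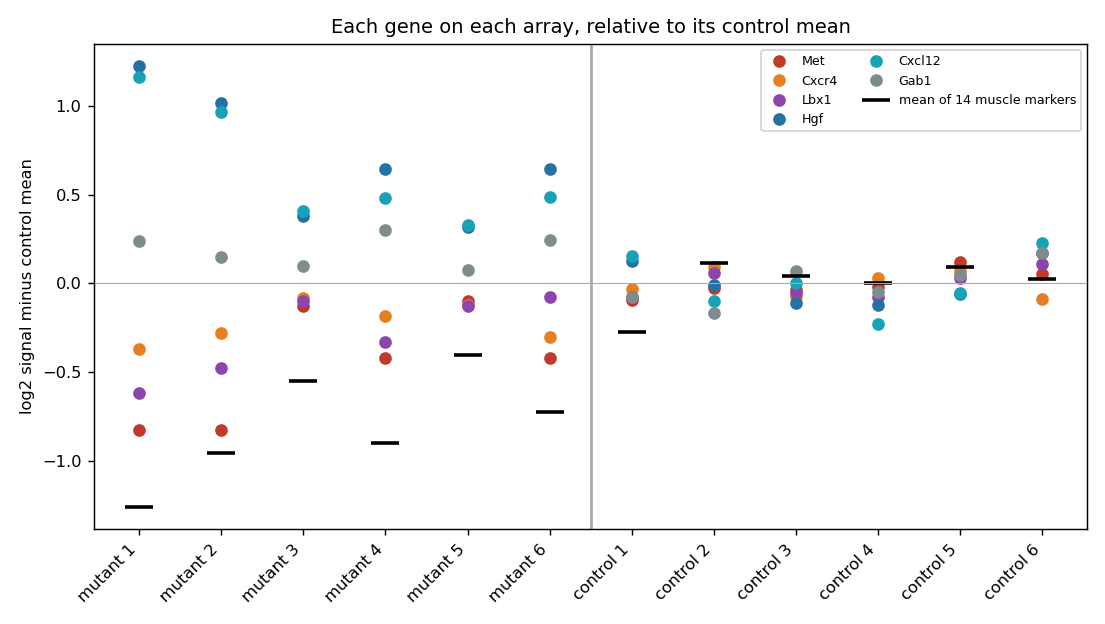
Log2 signal of each gene minus its mean over the 6 control arrays (y axis) on each mutant and control array, with black bars for the mean of 14 muscle markers. Hgf and Cxcl12 lie above 0 on all 6 mutants, at 1.23 and 1.16 on mutant 1, while on each mutant Met, Lbx1 and Cxcr4 lie between 0 and the muscle marker mean.

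Genes that act with HGF and MET mostly did not pass. Of 7 measured genes that activate HGF or inhibit its activation, 1 fell and 1 rose, where 11.1% of all genes passed, and the list median was 0.05. Plat, tissue plasminogen activator, fell by 0.36 (adjusted p = 0.0243) and Spint1, an inhibitor of HGF activator found in epithelium, rose by 0.34 (adjusted p = 0.0487). Of 27 measured partners and signal carriers of MET, 3 fell and 1 rose, a share near that of all genes, with a median of 0.09. Grb2, the adaptor that links MET to RAS, fell by 0.37 (95% interval −0.49 to −0.25, adjusted p = 0.00126), with every mutant below every control. For a second Grb2 probe set, nearly as bright, the difference was −0.08 (adjusted p = 0.370). Map2k1, a MAP kinase kinase gene, fell by 0.26 and Gab2, a relative of Gab1, by 0.24, while Sos1, the RAS exchange factor gene, rose by 0.16 (adjusted p = 0.0231, 0.0275 and 0.0460). The other Sos1 probe sets, all dimmer, differed by −0.03 to 0.02, and those of Gab2, also dimmer, by −0.14 and −0.0002. None of these passed. With mutants 1 and 2 left out 1 of the 27, Grb2, fell and none rose, and neither Plat nor Spint1 passed. When the 12 arrays were left out singly Spint1 lost its call with 10 of them, Sos1 with 9, Gab2 with 7, Map2k1 with 5 and Plat with 2, while Grb2 kept it with each.

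Among 15 measured genes that act with CXCL12 and CXCR4, 2 passed, both higher in mutants, and the list median was 0.09. That share is near the 11.1% of all genes that passed. These were Mmp2, a matrix protease that can cleave CXCL12 (0.24, adjusted p = 0.0200), and Jak2, a kinase gene (0.20, adjusted p = 0.0234). Ackr3, the scavenging receptor of CXCL12, differed by 0.22 (adjusted p = 0.0650) and did not pass. None of the 15 passed in either direction when mutants 1 and 2 were left out.

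Of 14 measured regulators of migrating or early myoblasts, 3 fell and 2 rose, with a median of 0.01. Over all genes 4.8% fell and 6.3% rose. Pax7, a progenitor factor, fell by 1.35, Fgfr4, an FGF receptor of muscle progenitors, by 0.92, and Eya2, a transcriptional coactivator, by 0.76 (adjusted p = 0.000338, 0.000688 and 0.00112), and in each every mutant lay below every control. Pax3, which acts upstream of Met and Lbx1 in migrating progenitors of the mouse, differed by 0.25 (95% interval 0.02 to 0.47, adjusted p = 0.153), opposite in sign to both. Msx1 rose by 0.38 (adjusted p = 0.0136), though its other probe set, nearly as bright, differed by 0.04, and Eya1 rose by 0.56 (adjusted p = 0.0344). The other Eya1 probe sets, both dimmer, differed by 0.05 and 0.19 and did not pass. Pax7, Fgfr4, Eya2 and Msx1 are named for having the smallest p in their list, and Pax3, Eya1 and Ackr3 were singled out with their values known. With mutants 1 and 2 left out Pax7, Fgfr4 and Eya2 still fell and neither rise passed.

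**Figure D5:**
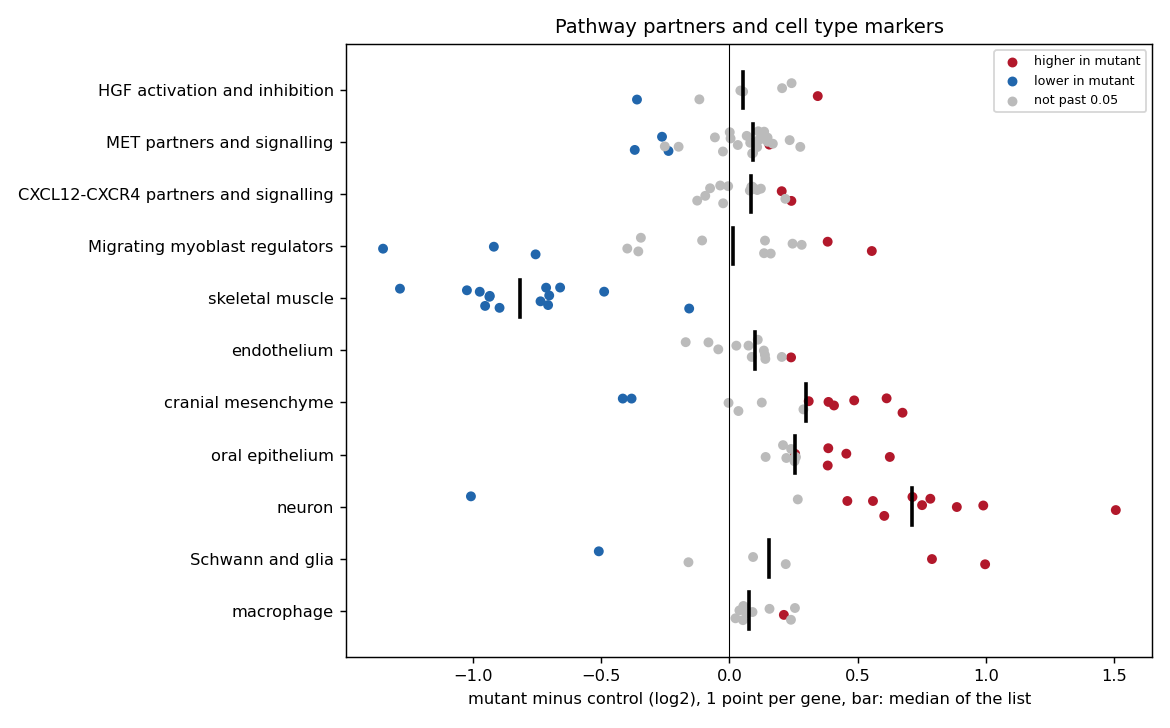
Mutant minus control difference on the log2 scale (x axis) of each gene in 4 lists of pathway partners and 7 lists of cell type markers (rows), coloured by the test, with a bar at the median of each list. Medians of the pathway lists lie between 0.01 and 0.09, against −0.82 for the muscle markers.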

How the data were processed

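Total RNA of 12 tongue samples was hybridised to 1 array each. The deposited values are log2 signals per probe set that the authors made with RMA, per the submitters' processing notes; no software version is stated, and the values, 2.57 to 15.09, fit base 2. RMA equalises the arrays and compresses changes of dim probe sets, and it hides any shift that most genes share. Arrays carry no counting depth, and their number limits the precision. No further normalisation was applied.

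Of 45101 probe sets, 64 controls were left out, and 34945 had 1 symbol in GEO's platform annotation, 932 several and 9160 none; symbols of 34741 were checked against RefSeq and none changed. For each of 18193 genes the probe set with the highest mean signal stood for the gene. Groups and replicate numbers came from the sample titles. The description field of all 12 samples speaks of early embryo stages that do not match mouse tongues, and was not used. Mutant was set against control with limma 3.58.1 in R 4.3.3 (genotype only, 2-sided). On simulated data for this comparison, also of 18193 genes, the test recovered 89% of genes changed by 0.5 and 99.5% of those changed by 1 on the log2 scale. Met, Lbx1, Cxcr4 and Gab1 differed by less than 0.5, so these rates do not apply to them.

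The members, the lists and the alternatives were chosen with earlier results of these data known. Named genes were the 6 members, up to 4 passing genes of each pathway list and 2 of each marker list by smallest p, and the 3 genes most like each member; others are said to be named after their values were seen. Alternatives were quantile normalisation, median centring, the mean or each of a gene's probe sets, leaving out dim genes, 3 variance or weight models, a replicate block, each array left out, and 3 sets of arrays left out that an earlier analysis of these arrays set apart (mutants 1 and 2 by principal component, control 3 with mutants 4 and 6 by mixed sex-linked signals, control 6 and mutant 6 by low 18S signal). Some genes of the lists are not reported here.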

Additional observations from a re-analysis of the deposited data

How the results depend on the processing

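Hgf kept its direction and its call under every alternative tried, as did Cxcl12 except at its dim probe set, which differed by −0.0403. Met lost its call with the mean of its probe sets (−0.24, adjusted p = 0.230), at its dim probe set (−0.0218), without mutants 1 and 2 (−0.27), without control 6 and mutant 6 (−0.45) and without control 3, mutant 4 and mutant 6 (−0.48), and ranged from −0.52 to −0.38 with single arrays left out. Cxcr4 lost its call without mutants 1 and 2 (−0.17) and without control 3, mutant 4 and mutant 6 (−0.23), and ranged from −0.25 to −0.19 with single arrays left out. Lbx1 passed with quantile normalisation (−0.31, adjusted p = 0.0474) and, at −0.29, with array weights (0.0445), trended and robust variance (0.0411) and without dim genes (0.0394); single arrays left out gave −0.33 to −0.22, and it passed without mutant 3, 5 or 6. Gab1 passed, at 0.18, with trended and robust variance (0.0480) and without dim genes (0.0492), where fewer genes were tested, and ranged from 0.15 to 0.22 with single arrays left out, passing without control 6. The count of members called, 4, was 2 without mutants 1 and 2 and without control 3, mutant 4 and mutant 6, 2 to 5 with single arrays left out, 3 with the mean of all probe sets and without control 6 and mutant 6, 5 with quantile normalisation and with array weights, and 6 with trended and robust variance and without dim genes. Over all genes, 1147 were higher and 873 lower. These counts were 379 and 496 without mutants 1 and 2, and 1116 and 774 without control 6 and mutant 6, also 2 arrays. They were 440 and 396 without control 3, mutant 4 and mutant 6, and 733 to 1209 and 665 to 899 with single arrays left out. Some alternatives have fewer samples or genes, and the cause of the changed counts was not tested.

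Replicate numbers are shared between genotypes. Deviations of same-numbered arrays correlated at −0.06 for number 3 and at 0.12 to 0.24 for the other numbers. Whether same-numbered samples share more than a number was not tested. With the replicate block Lbx1 passed (−0.29, adjusted p = 0.0443), so 5 members were called, and over all genes 1932, against 2020 without it. Among the migrating myoblast regulators 4 were higher and 4 lower with the block, against 2 and 3 without it, and 2 macrophage markers were higher, against 1. Of the 6 control arrays 3 correlated best with the mutant of their own number.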
